A study of Mus musculus with 7 samples.

Results

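Mammary glands of BALB/c mice were compared with mammary glands of C57 mice after organ culture, on 4 of the 7 arrays of the series. The arrays were chosen by their labels, and no measured value entered the choice. Probes were kept where the scanner software called the spot good, that is, above background, on all 4 arrays, which held for 20709 of the 34967 gene probes. These probes name 9944 genes, each given below by its brightest probe. The first BALB/c array holds glands after 24 days of culture, and the second holds glands after 24 days of culture with vitamin D5, a vitamin D analogue. The first C57 array holds glands after 10 days of culture and the second holds glands after 24 days, both labelled as without DMBA, a polycyclic hydrocarbon carcinogen. All 4 are labelled wild type, from mice 4 weeks old. The strain labels read C57 and Balb/c, the protocol names C57/BL6 mice as the wild-type controls, and each condition has 1 array.

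The culture protocol given for all samples describes female C57/BL, αERKO and βERKO mice, so its use for BALB/c mice is not stated. It primes mice over 9 days with estrogen (1 µg) and progesterone (1 mg) and then cultures the thoracic glands without serum. The study's text on its arrays instead names priming with epidermal growth factor and progesterone, for wild type, αERKO and βERKO mice, so the priming behind each array compared here is not settled. Insulin, prolactin, aldosterone and hydrocortisone were present for the first 10 days, the growth promotion phase, and insulin alone for another 14 days, the regression phase. By this protocol the C57 10-day array ends at growth promotion and the C57 24-day array after regression, and the labels of the BALB/c arrays give 24 days with no phase. DMBA exposure is not stated for either BALB/c array, nor is the dose of vitamin D5. Pooling of RNA from 5 mice per group is stated for wild type, αERKO and βERKO groups. The 2 arrays of a strain are thus different conditions, and strain cannot be told apart from DMBA exposure of the BALB/c glands, priming or pooling. Culture time and vitamin D5 each differ within 1 strain, and leaving out the array concerned is described below.

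The mammary gland is a tree of epithelial ducts, with luminal cells inside a layer of contractile myoepithelial cells, set in a fat pad of adipocytes, fibroblasts, vessels and macrophages. In organ culture the whole gland is kept, so its stroma and resident immune cells are measured together with the epithelium. Lactogenic hormones drive alveolar growth in such cultures, and their withdrawal is followed by regression. BALB/c and C57BL/6 mice carry different major histocompatibility complex (MHC) haplotypes, and Ifi202b, an interferon-inducible gene, is known to be all but silent in C57BL/6 mice.

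The labelled tissue was checked first. Levels are log2 values of the background-subtracted intensity over the median of the gene probes of the array. Krt18, a keratin of luminal cells, stood at 8.55 and 8.57 on the BALB/c arrays and at 8.48 and 8.59 on the C57 10-day and 24-day arrays. Krt14, a keratin of basal cells, stood at 7.27 and 8.0 on the BALB/c arrays and at 7.80 and 6.48 on the C57 arrays. Both are bright everywhere, and the groups overlap for each. Krt8, the luminal partner of Krt18, stood at 4.19 and 5.20 against 4.99 and 5.64, which overlap as well. Col1a1, the main collagen chain of fibroblasts, was dim on both BALB/c arrays, at -1.08 and -1.49, and near background on both C57 arrays. Csn2, the milk protein β-casein, was near background on the BALB/c array without vitamin D5 and at 0.40 on the array with it. On the C57 arrays Csn2 stood at -1.34 after 10 days and at 5.39 after 24 days, so it was bright on 1 of the 4 arrays.

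The labelled strains were checked at genes known to differ between inbred strains. Ifi202b, which should be all but silent in C57BL/6 mice, was bright on the arrays of both strains. Ifi202b (probe GE1463347) stood at 3.55 and 4.04 on the BALB/c arrays and at 4.39 and 4.35 on the C57 arrays, and its other probe was also good on all 4. It stood at 4.49 on the C57 array with DMBA, whereas on the αERKO array, labelled C57BL6/129SV, both of its probes were near background. Ly6a, the stem cell antigen Sca-1, is known for lower expression in BALB/c mice. Its levels were 4.38 and 5.42 on the BALB/c arrays against 4.99 and 4.00 on the C57 arrays, which overlap, and 7.39 and 7.06 on the αERKO and βERKO arrays. Of the 9 measured genes on a list of strain differences, only Klra2, a natural killer cell receptor gene, passed the rule used below, lower on the BALB/c arrays. That rule called 0.865% of all genes higher and 1.63% lower. The groups lay apart for 6 of the 9, all lower, and 10 further genes of the list were not good on all 4 arrays. A probe of Klra3, a related receptor gene, was good on both BALB/c arrays, at -0.34 and -1.19, and near background on both C57 arrays. Klra2 stood at -0.43 and -0.40 on the BALB/c arrays and at 0.45 and 0.81 on the C57 arrays. None of the 16 measured MHC class I genes passed it, although the groups lay apart for 8, all lower, as they did for 4362 of all 9944 genes. Of these, B2m stood at 8.04 and 8.08 against 8.35 and 8.89, and H2-D1 at 7.22 and 7.17 against 7.56 and 7.74. None of the 3 measured MHC class II genes passed it either, and 7 others of that list were not good on all 4 arrays. Probes can bind more than 1 class I gene, and a haplotype can alter the binding of a probe without altering expression. At Ifi202b and Ly6a the labelled groups did not differ in the direction known for the strains, so the strain labels remain in doubt. The strain names are used below as the arrays are labelled, and each strain difference is a difference between these labels.

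**Figure D1:**
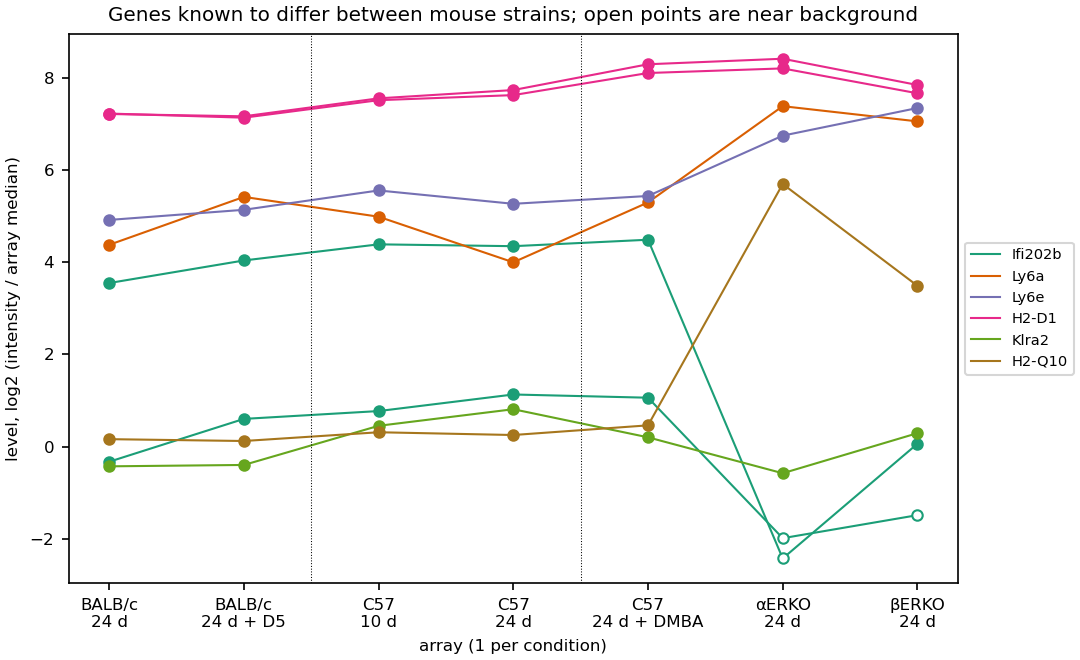
Levels (vertical axis, log2 of intensity over the array median) of 6 genes that are known to differ between mouse strains, on each of the 7 arrays (horizontal axis, 1 array per condition), with a line per probe and open points for spots near background. The 4 arrays left of the second dotted line are those compared: Ifi202b lies between 3.55 and 4.39 there by its brighter probe, and Ly6a overlaps between the strains.

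The median intensity of the gene probes lay between 44.9 and 53 on the 4 arrays, over a median local background of 82 to 83, and 70.8% to 73.3% of gene probes were good. The 4 arrays were not equally far apart. The C57 10-day array differed by more than 2-fold from the BALB/c array at 301 probes and from the BALB/c array with vitamin D5 at 343 probes. The BALB/c arrays differed from each other at 317 probes, so the C57 10-day array lay about as near to them as they lay to each other. The C57 24-day array differed from the BALB/c array at 1909 probes, from the array with vitamin D5 at 1469 probes and from the C57 10-day array at 913 probes. Across the 20709 probes, which are not independent replicates, Pearson's r was 0.986 between the BALB/c arrays, 0.986 and 0.987 between them and the C57 10-day array, and 0.961 for each against the C57 24-day array. The 2 C57 arrays correlated at 0.974.

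**Figure D2:**
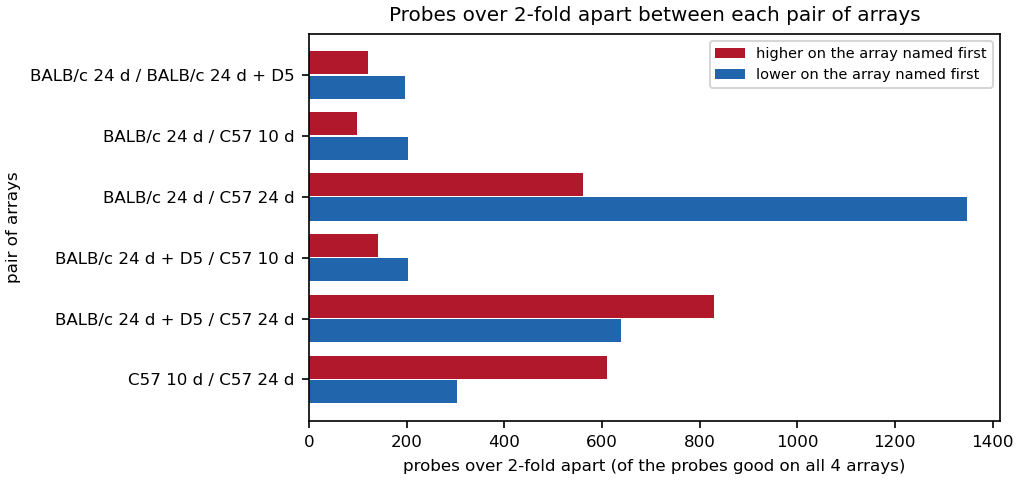
Number of probes (horizontal axis) more than 2-fold apart between each pair of the 4 arrays (vertical axis), red where the array named first is higher and blue where it is lower. The 3 pairs formed by the BALB/c arrays and the C57 10-day array hold 301 to 343 probes, and the 3 pairs with the C57 24-day array hold 913 to 1909.

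A probe was called different where the strain means lay more than 2-fold apart and both BALB/c values lay on the same side of both C57 values, written below as groups apart. By this rule 142 probes (0.686% of those tested) were higher and 205 probes (0.99%) were lower on the BALB/c arrays. Without the threshold, groups lay apart for 2415 probes higher (11.7%) and 7619 probes lower (36.8%). The median difference over all probes was -0.13, a shift of the whole array that scaling can move. Of the called probes 40.9% were higher, and this share depended on the scaling: it was 62.9% (220 higher, 130 lower) when arrays were scaled to the 75th percentile, 59.8% after cyclic loess and 55.1% after quantile normalization. A difference of more than 2-fold in all 4 pairs of a BALB/c with a C57 array was reached by 6 probes higher (0.029%) and 51 probes lower (0.246%). Counted by gene, 86 genes (0.865% of 9944) were higher and 162 genes (1.63%) were lower.

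A model fitted across all probes (limma with a variance trend and Benjamini-Hochberg adjustment, 2 arrays against 2) called 0 probes higher and 0 lower at an adjusted p under 0.05 (0.0% each), with a smallest adjusted p of 0.388. At an unadjusted p under 0.05 it held 441 probes higher (2.13%) and 1583 lower (7.64%). Its residual includes culture time and vitamin D5 together with array error. None of the genes named below passes this test, and their values are given as descriptions of these 4 arrays. Each SE below is the standard error of the strain difference in this fit.

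The C57 arrays did not weigh equally in these calls. Among the 205 probes called lower on the BALB/c arrays, 194 were higher on the C57 24-day array than on the C57 10-day array, and 92 of them by more than 2-fold. Among the 142 called higher, 137 were lower on the C57 24-day array, 91 of them by more than 2-fold. Only 66 of the lower and 27 of the higher probes stayed more than 2-fold from the C57 10-day array. Of all 347 called probes, 18 lay over 2-fold apart when the BALB/c arrays were set against each other.

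Each C57 array was therefore also compared alone with both BALB/c arrays, which the 2 comparisons share. Against the C57 24-day array, with all 3 arrays at the same culture time, 614 probes (2.96%) were over 2-fold higher with the groups apart and 831 (4.01%) were lower. Here limma called 403 probes higher (1.95%) and 560 lower (2.7%) at an adjusted p under 0.05, assuming that the lone C57 array varies as the BALB/c arrays do. Against the C57 10-day array alone, 42 probes (0.203%) were higher and 133 (0.642%) were lower, and limma called 0 higher and 1 lower, an unnamed probe (GE1533292) at a difference of -3.21 (adjusted p = 0.0261). Below, "against 24 days" and "against 10 days" name these comparisons. Counted by gene, 294 of the 9944 genes were called higher and 587 lower against 24 days (limma 195 and 402), and 27 higher and 70 lower against 10 days.

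**Figure D3:**
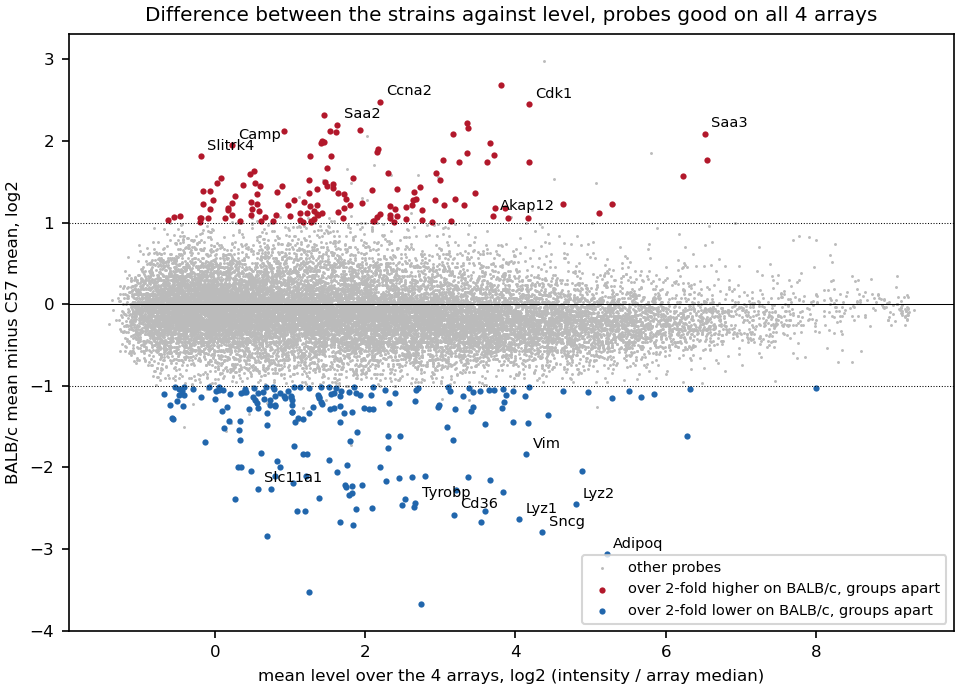
Difference between the BALB/c mean and the C57 mean (vertical axis, log2) against the mean level over the 4 arrays (horizontal axis, log2 of intensity over the array median), for the 20709 probes good on all 4. Red and blue points are the 142 higher and 205 lower probes past 2-fold with groups apart, and dotted lines mark 2-fold.

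Macrophage genes were lower on the BALB/c arrays and had the lowest median difference of the 29 gene lists examined. Of the 12 measured genes of a macrophage list, 9 were called lower and none higher, against 1.63% of all genes lower. The list has 19 genes with a probe, of which Cd163, Mrc1, C1qb, Fcgr1, Aif1, Ms4a7 and Itgam were not good on all 4 arrays. The median difference of the list was -2.13 (-0.19 over all genes), and between -2.13 and -1.70 under the 5 other scalings and background corrections. It was -2.71 against 24 days and -1.43 against 10 days. The summed intensity of the list, in units of the array median, was 154 and 194 on the BALB/c arrays, 286 on the C57 10-day array and 413 on the C57 24-day array. These sums include Cd14, the brightest member on all 4 arrays, at 6.76 and 7.14 against 6.91 and 6.57. Epithelium and neutrophils also express Cd14, so the sums do not measure macrophage genes alone. In RNA of whole glands, fewer macrophages and less of each RNA per macrophage cannot be told apart.

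Lyz1 and Lyz2 encode lysozymes, which digest bacterial cell walls. Lyz1 stood at 2.68 and 2.79 on the BALB/c arrays, at 4.86 on the C57 10-day array and at 5.86 on the C57 24-day array. The BALB/c values lie close together and far below both C57 values, with a difference of -2.63 (SE 0.33). Lyz2 stood at 3.49 and 3.67 against 5.59 and 6.48, a difference of -2.45 (SE 0.31). The 2 lysozyme genes are near copies of each other, and their probes may share signal.

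Tyrobp and Fcer1g encode signalling adaptors that carry receptor signals in myeloid cells. Tyrobp stood at 1.44 and 1.46 on the BALB/c arrays and at 3.48 and 4.29 on the C57 arrays, a difference of -2.44 (SE 0.29). Fcer1g stood at 0.47 and 0.76 against 2.52 and 3.38, a difference of -2.34 (SE 0.32). For both, the strains were more than 3-fold apart in every pair of arrays. Ctss, the lysosomal protease cathepsin S, stood at 3.63 and 4.09 against 5.57 and 6.25. Fcgr3, an Fc receptor for antibody, stood at 1.04 and 1.34 against 2.86 and 3.85. These 6 genes were lower against either C57 array: by 2.39 to 3.13 log2 units against 24 days and by 1.68 to 2.13 against 10 days. Their adjusted p lay between 0.00103 and 0.00413 against 24 days and between 0.0887 and 0.167 against 10 days.

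The complement genes moved differently among the arrays. C1qa, a chain of the complement starter C1q, stood at 0.23 and 0.44 on the BALB/c arrays, at 1.52 on the C57 10-day array and at 4.48 on the C57 24-day array. C1qc, another chain, stood at 0.12 and 0.20 against 0.73 and 3.78. Marco, a scavenger receptor, stood at -0.42 and -0.70 against 0.02 and 1.49. For these 3 genes most of the difference lies with the C57 24-day array, since against 10 days their differences were -1.18, -0.58 and -0.57. Msr1 and Trem2 were apart but under 2-fold, at -0.83 and -0.74, and Cd14, which epithelium and neutrophils also express, overlapped at 0.21. Mrc1, the mannose receptor, was good only on the C57 arrays, at -0.12 and 1.15. Its mean there was at least 4.47-fold above its own near-background values on the BALB/c arrays. In all, 7 of the 12 genes were called lower against 10 days, where 70 of all 9944 genes were, and 9 against 24 days, where 587 were.

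The promoter of Ctss is shown because its gene was lower against either C57 array and its upstream bases hold the letters GAGGAA (in capitals), a core bound by the myeloid factor PU.1. It covers the 250 bases before the RefSeq start site in GRCm38.p6, chr3:95526536-95526785, plus strand, printed 5′ to 3′.
Ctss: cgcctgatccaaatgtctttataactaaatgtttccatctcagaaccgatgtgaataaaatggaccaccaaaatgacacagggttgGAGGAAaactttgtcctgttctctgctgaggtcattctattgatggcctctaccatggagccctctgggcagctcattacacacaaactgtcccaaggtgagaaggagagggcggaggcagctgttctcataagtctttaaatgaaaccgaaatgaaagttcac
Of the 9 called macrophage genes, 7 have a promoter entry, and 4 of them (C1qc, Ctss, Fcgr3 and Marco) hold GAGGAA or its other-strand form TTCCTC. Among all 32851 promoters of the table, 23.3% hold either form. A gene was counted where any of its entries holds the letters, whereas this share counts each promoter entry. A match of letters is a description and does not show binding.

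Further genes of myeloid and other blood cells stood among the 15 lower genes with the widest gap between the strains. The gap is the distance from the nearest BALB/c to the nearest C57 value. Alox5ap, which presents arachidonic acid for leukotriene synthesis, stood at 0.51 and 0.75 on the BALB/c arrays and at 2.75 and 3.52 on the C57 arrays, a gap of 2.00 log2 units. Clec4d and Clec4n, C-type lectin receptors for fungi, stood at 2.21 and 2.45 against 4.39 and 5.34, and at 1.15 and 1.24 against 3.28 and 3.11. Clec4n had the smallest unadjusted p of the named genes, with a difference of -2.00 (SE 0.18, adjusted p = 0.388). Its values lay close together within each strain. C3ar1, the receptor for complement C3a, stood at -0.36 and -0.40 against 1.51 and 2.25. Slc11a1, a metal transporter of phagosomes, stood at -0.58 and -0.54 against 1.29 and 2.12. Cd53, a tetraspanin of white blood cells, stood at 0.26 and 1.00 against 2.67 and 3.07. Pf4, a chemokine of platelets and macrophages, stood at 2.29 and 3.09 against 4.75 and 5.22. Ms4a6d and Arl11 also belong to this set, with differences of -2.49 (SE 0.38) and -2.23 (SE 0.26).

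Lists of other white blood cells held few called genes. Of 6 measured genes of a T and NK cell list, out of 17 with a probe, none was called. The list's median was -0.05 (-0.04 to 0.08 under the other scalings). Of 11 measured B and plasma cell genes none was called either, with a median of 0.20. Only 0.865% of all genes were called higher and 1.63% lower, so lists this short would hold few calls at that share. Of 7 mast cell and granulocyte genes only Camp, described below, was called, and S100a8, a calcium-binding protein of neutrophils that epithelium also makes, stood at 5.32 and 5.71 against 4.99 and 4.06. Against 24 days Camp, S100a8, S100a9 and, of the B and plasma cell genes, Sdc1 were called higher, as were 294 of all 9944 genes. Of these lists only Camp was called against 10 days, where 27 of all genes were higher. The summed levels of the T and NK list were 13.5 and 13.8 on the BALB/c arrays and 13 and 15 on the C57 arrays. Defining T cell genes (Cd3d, Cd3e, Cd3g) were not good on all 4 arrays.

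Adipocyte genes were the other large group that was lower on the BALB/c arrays, and here the C57 24-day array stood apart. Of 18 measured genes 11 were called lower and none higher, against 1.63% of all genes lower. The list's median difference was -1.07, and between -1.07 and -0.87 under the other scalings. It was -1.80 against 24 days and -0.31 against 10 days. Its summed level was 487 and 382 on the BALB/c arrays and 526 on the C57 10-day array, but 1390 on the C57 24-day array. Against 24 days 13 of the 18 were called lower (587 of all 9944 genes), and against 10 days only Adipoq and Cd36 were (70 of all genes).

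Adipoq, the adipocyte hormone adiponectin, stood at 4.66 on the BALB/c array and at 2.71 with vitamin D5, against 5.45 after 10 days and 8.05 after 24 days on the C57 arrays. The groups do not overlap, but the BALB/c arrays differ from each other by nearly as much as the C57 arrays do, and the difference of -3.06 has an SE of 0.97. Cd36, a fatty acid transporter that macrophages and endothelium also express, stood at 1.96 and 1.84 against 3.55 and 5.39, a difference of -2.58 (SE 0.57). Retn, the hormone resistin, stood at 0.51 and 0.46 against 1.38 and 4.99. Cfd, the complement protease adipsin, stood at 0.91 and 0.42 against 1.33 and 4.63. Fabp4, a fatty acid carrier, was bright on all 4 arrays, at 7.74 and 7.23 against 7.85 and 9.19. For Retn, Cfd and Fabp4 the C57 10-day value lies nearer to the BALB/c values than to the C57 24-day value.

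Other called genes of the list act in lipid storage and release. Cidec and Plin4, coats of the fat droplet, had differences of -1.46 and -1.91, and Pnpla2 and Lipe, the lipases that open it, of -1.13 and -1.11. Gpd1 and Acsl1, which supply glycerol phosphate and activated fatty acids, had differences of -1.0 and -1.68. Against 10 days the differences of Cidec, Plin4, Pnpla2, Lipe, Gpd1 and Acsl1 were -0.41, -0.83, -0.47, -0.40, -0.18 and -0.27, so most of each lies with the C57 24-day array. Pparg, the regulator of fat cell identity, overlapped between the groups at 2.90 and 3.10 against 2.95 and 3.75, and so did Lpl, at 7.46 and 7.23 against 7.32 and 7.84. Dgat2 and Cidea, of triglyceride synthesis and the fat droplet, overlapped too, at 1.49 and 2.07 against 1.76 and 2.82, and at 3.88 and 4.29 against 4.12 and 4.92. Lep, the hormone leptin, was near background on both BALB/c arrays and good on the C57 arrays, at -0.16 after 10 days and 4.17 after 24 days. None of 13 measured genes of lipid synthesis was called, with a list median of -0.09 (-0.09 to 0.11 under the other scalings), and none of 15 cholesterol synthesis genes, with a median of 0.01. The share called over all genes was 0.865% higher and 1.63% lower.

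**Figure D4:**
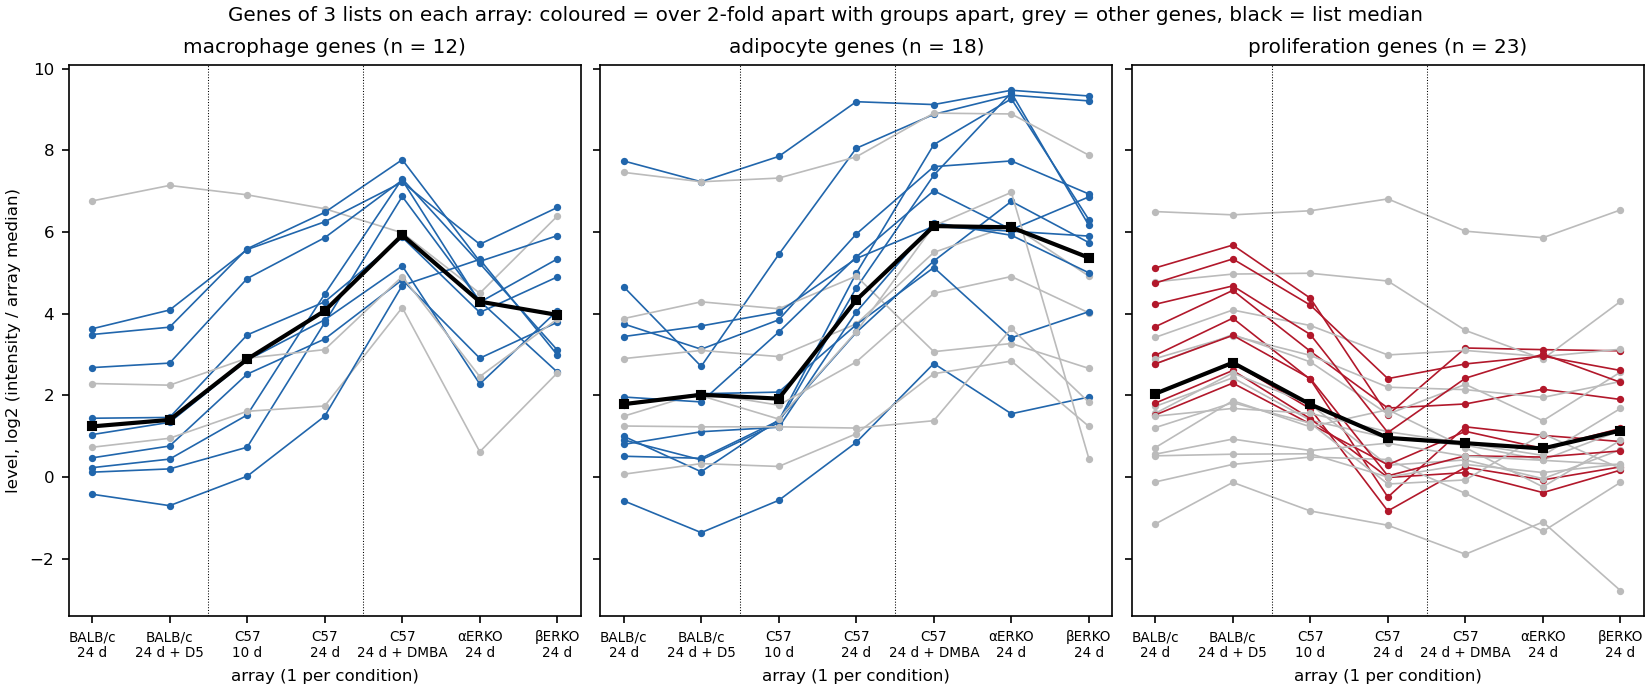
Levels (vertical axis, log2 of intensity over the array median) of the measured genes of the macrophage, adipocyte and proliferation lists on the 7 arrays (horizontal axis, 1 array per condition). Coloured lines are genes called between the strains, grey lines the others and black lines the list medians; the 2 arrays left of the first dotted line are BALB/c, and the next 2 are the C57 arrays compared with them.

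Other stromal and non-mammary genes were examined with the same lists. Vim, the intermediate filament vimentin of mesenchymal and immune cells, was lower on the BALB/c arrays, at 3.13 and 3.32 against 4.38 and 5.75. Its difference was -1.84 (SE 0.44), and it was -2.52 against 24 days and -1.16 against 10 days. Sncg, a synuclein that adipocytes also express, stood at 3.26 and 2.67 against 4.90 and 6.61. The matrix genes were mixed: of 22 measured, Dcn and Lum were called higher and Vim lower, against 0.865% and 1.63% of all genes. Against 24 days 5 were called higher and 3 lower (Col6a1, Mfap5 and Vim), beside 294 and 587 of all 9944 genes. Against 10 days Col3a1, Dpt and Lum were called higher and Vim lower, beside 27 and 70 of all genes. Dcn, the proteoglycan decorin, stood at 3.47 and 4.35 against 3.11 and 1.19, and Lum, lumican, at -0.31 and 1.39 against -0.46 and -1.23. For both the C57 10-day value lies close to the lower BALB/c value, and the difference of Lum, 1.39, was 0.54 without the array with vitamin D5. On the C57 array with DMBA Dcn and Lum stood at 5.44 and 3.07, above both BALB/c values. With that array added to the C57 group, the matrix list's median turned from 0.22 to -0.96. Of 10 matrix metalloproteinase genes and their inhibitors, Mmp11 alone was called, higher at 0.35 and -0.19 against -0.68 and -1.33. Against 24 days Mmp2, Mmp3, Mmp11 and Timp1 were called higher, as were 294 of all 9944 genes. Against 10 days Mmp11 was not called, at 0.76, and Mmp12 and Timp3 were called lower, as were 70 of all genes. No endothelial gene of 10 was called, but Cldn5, Emcn and Esam were lower against 24 days, as were 587 of all 9944 genes. The summed level of the endothelial list was 18.5, 16.9 and 17.1 on the BALB/c and C57 10-day arrays against 39.5 on the C57 24-day array. In the muscle list only Acta1 of 7 genes was called (difference -1.33, SE 0.47, and -0.61 without the array with vitamin D5). In the erythroid list only Hba-a1 of 3 was called (-1.27, SE 0.31), and in the nerve list only Pmp22 of 8 (-1.15, SE 0.30, and -0.70 against 10 days). All 3 were lower, as were 1.63% of all genes. Hba-a1, a haemoglobin chain, stood at 1.53 and 1.17 against 2.23 and 3.02. The part of blood, vessels or muscle in the macrophage and adipocyte differences was not tested.

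A subset of genes of mitosis and DNA replication was higher on the BALB/c arrays and low on the C57 24-day array. Of 23 measured genes of a proliferation list, 9 were called higher, 14 were not called and none was lower by the rule, against 0.865% of all genes higher. The list's median difference was 0.94, and between 0.71 and 1.06 under the other scalings. It was 1.59 against 24 days, 0.28 against 10 days and 0.55 without the array with vitamin D5. Against 24 days 13 of the 23 were called higher and limma called 12 (294 and 195 of all 9944 genes). Against 10 days 3 were called, Ccna2, Ccnb2 and Cdk1 (27 of all genes), and limma called 0.

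Cdk1, the kinase that starts mitosis, stood at 5.12 on the BALB/c array and at 5.68 with vitamin D5, against 4.38 after 10 days and 1.52 after 24 days on the C57 arrays. Its difference was 2.45 (SE 0.87). Ccna2 and Ccnb2, cyclins that partner it, stood at 2.98 and 3.89 against 2.39 and -0.49, and at 3.68 and 4.57 against 3.08 and 1.69. In all 3 genes the C57 24-day value is the one that stands apart. Top2a, which untangles chromosomes, stood at 2.04 and 2.80 against 1.67 and -0.83, and Nusap1, a spindle protein, at 4.23 and 4.68 against 3.49 and 1.09. Birc5, Tk1, Cdc20 and Mcm6 were called too, with differences of 1.74, 1.90, 1.5 and 1.10, and of 0.84, 0.71, 0.78 and 0.60 against 10 days. Each of the 9 was highest on the array with vitamin D5 and next on the other BALB/c array. The genes of the replication licensing complex were less uniform: Mcm5 overlapped at 1.02, and Mcm2 and Mcm7 stood at -0.36 and -0.15. Pcna, the replication clamp, stood at 6.5 and 6.42 against 6.52 and 6.81.

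The promoters of Cdk1 and Ccnb2 are shown because both genes were called against either C57 array and because they hold the letters of 2 elements common in genes of mitosis, CCAAT and TTTGAA. Capitals mark every match on either strand in the 250 bases before the RefSeq start site in GRCm38.p6, printed 5′ to 3′ along the gene. Cdk1 lies at chr10:69352913-69353162 and Ccnb2 at chr9:70421555-70421804, both on the minus strand.
Cdk1: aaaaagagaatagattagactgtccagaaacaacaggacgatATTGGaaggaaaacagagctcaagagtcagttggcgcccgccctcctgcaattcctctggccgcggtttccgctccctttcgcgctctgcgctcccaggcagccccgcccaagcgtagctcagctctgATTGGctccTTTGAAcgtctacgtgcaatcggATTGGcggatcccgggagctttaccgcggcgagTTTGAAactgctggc
Ccnb2: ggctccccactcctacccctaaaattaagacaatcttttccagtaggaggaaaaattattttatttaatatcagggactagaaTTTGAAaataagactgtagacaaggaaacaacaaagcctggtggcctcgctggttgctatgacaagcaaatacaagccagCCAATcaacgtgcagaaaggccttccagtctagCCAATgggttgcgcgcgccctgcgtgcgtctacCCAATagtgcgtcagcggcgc
Each promoter holds 3 matches of CCAAT, which reads as ATTGG where it lies on the other strand. Cdk1 holds 2 matches of TTTGAA, counted on both strands, and Ccnb2 holds 1. Unmarked here, Cdk1 also holds TTCCTC and Ccnb2 holds GAGGAA, so those letters are not particular to the macrophage genes. Of the 9 called proliferation genes 8 have a promoter entry: 5 of them hold CCAAT, against 33.8% of all 32851 promoters, and 4 hold TTTGAA, against 16.0%. Here too the counts are by gene and the shares by promoter entry.

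Secreted proteins of the acute-phase response were split. The serum amyloid A genes, which encode lipoproteins induced by inflammation, were higher on the BALB/c arrays. Saa2 stood at 1.98 and, with vitamin D5, at 3.49, against 0.62 and 0.43 on the C57 arrays, a difference of 2.20 (SE 0.48). Saa3 stood at 7.10 and 8.03 against 6.54 and 4.4, and Saa1 at 3.12 and 4.58 against 2.39 and 2.72. All 3 were highest with vitamin D5, and all 3 were called against either C57 array alone. Without the array with vitamin D5 the difference of Saa1, 1.29, was 0.56. Saa1 and Saa2 are near copies, and their probes may share signal. On the C57 array with DMBA, Saa2 stood at 2.19 and Saa1 at 4.39, within the range of the BALB/c arrays. Serpina3n, a protease inhibitor of the same response, went the other way, at 0.58 and 1.11 against 1.20 and 4.92, with nearly all of its difference from the C57 24-day array.

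Among the chemokines, Ccl6 and Ccl9, products of macrophages, were lower on the BALB/c arrays. Ccl6 stood at 2.07 and 3.08 against 4.25 and 5.23, a difference of -2.16 (SE 0.44), and Ccl9 at -0.12 and 0.47 against 1.31 and 2.53. Cxcl16 was called lower as well, at 2.93 and 3.56 against 4.16 and 4.74, and Ccl8 was called higher, at 1.52 and 2.05 against 1.21 and 0.34. Over the whole list of 30 chemokine and acute-phase genes, 4 were called in each direction and the median was -0.16. Of all genes 0.865% were called higher and 1.63% lower. Against 24 days 8 of the 30 were called higher and 7 lower, where 294 and 587 of all 9944 genes were.

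The higher genes with the widest gap formed no single list. Slitrk4, a neuronal membrane protein, stood at 0.76 and 0.68 on the BALB/c arrays against -0.75 and -1.44, a difference of 1.81 (SE 0.28). Emid1, an extracellular matrix protein, stood at 0.66 and 0.88 against -0.68 and -0.76, with values close together within each strain, but it stood at 1.61 on the C57 array with DMBA. Camp, the antimicrobial peptide cathelicidin of neutrophils, stood at 1.07 and 1.33 against -0.20 and -1.30, a difference of 1.95 (SE 0.38). Akap12, a scaffold of protein kinase A, stood at 4.07 and 4.42 against 3.21 and 3.13, but at 4.38 on the C57 array with DMBA. Car2, a carbonic anhydrase, stood at 1.94 and 2.66 against 1.16 and 0.51, and Elovl3, a fatty acid elongase, at 2.22 and 2.55 against 1.52 and 0.57. The others of the 15 were Pamr1, Ceacam10, Mfsd4a, Defb7, Apol7c, Ppp1r3b, Saa2, Cdk1 and Nusap1, and their gaps lay between 0.71 and 1.35 log2 units. Pamr1 stood at 1.17 on the C57 array with DMBA and at 3.92 on the αERKO array. The widest gap among higher genes, 1.43 for Slitrk4, was narrower than each of the 15 among lower genes, which ran from 1.64 to 2.07.

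None of 23 luminal genes and none of 14 basal and myoepithelial genes was called, against 0.865% of all genes higher and 1.63% lower. Against 24 days 4 basal genes were called higher (Krt5, Krt14, Krt17 and Trp63), and among luminal genes Aldh1a3 was called higher and Cldn4 lower. Of all 9944 genes 294 were called higher there and 587 lower. The basal list had a median of 0.46, between 0.43 and 0.60 under the other scalings, but -0.01 against 10 days. Krt5, a basal keratin, stood at 8.43 and 8.82 on the BALB/c arrays, at 8.71 on the C57 10-day array and at 7.07 on the C57 24-day array. Cldn4, a tight junction protein of luminal cells, stood at 6.46 and 6.31 against 6.83 and 7.58. None of 14 genes of squamous differentiation was called, although 6 of them were higher against 24 days, as were 294 of all 9944 genes. Krt16, a keratin of stressed epidermis, stood at 5.03 and 6.82 against 6.23 and 3.15, and Sbsn, suprabasin, at 6.44 and 6.78 against 6.59 and 4.91. In each of these the C57 10-day array lies among or next to the BALB/c values.

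Of 17 genes of milk and secretion, 2 were called higher on the BALB/c arrays, against 0.865% of all genes. Against 24 days 4 were called higher and 2 lower, where 294 and 587 of all 9944 genes were. Lalba, the milk sugar regulator α-lactalbumin, stood at 2.82 and 3.82 against 2.45 and 1.62, and Cel, a lipase of milk, at -0.19 and 1.11 against -0.37 and -1.17. Their differences, 1.29 and 1.23, were 0.78 and 0.58 without the array with vitamin D5. Csn1s1, an α-casein, stood at 4.04 without and at 6.51 with vitamin D5, against 4.09 and 3.39, so the array with vitamin D5 alone is high. Csn3, κ-casein, stood at 5.21 and 6.79 against 5.89 and 8.05. The caseins thus did not share a direction, as Csn2 above was brightest on the C57 24-day array.

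Of 20 measured targets of the tumour suppressor p53 none was called, with differences from -0.85 to 0.06. By the same rule 0.865% of all genes were called higher and 1.63% lower. For 15 of the 20 targets the groups lay apart, all lower on the BALB/c arrays, as they did for 4362 of all 9944 genes. Against 24 days Aen and Mdm2 were called lower, at -1.23 and -1.11, as were 587 of all 9944 genes. The list's median was -0.49, and between -0.48 and -0.28 under the other scalings. Mdm2, the ubiquitin ligase that p53 induces, stood at 0.05 and -0.12 against 0.40 and 1.08. Ccng1, cyclin G, stood at 5.23 and 5.43 against 5.88 and 6.29, and Gadd45a, a growth arrest gene, at 4.29 and 4.53 against 5.02 and 5.12. On the C57 array with DMBA these 3 stood at 0.13, 4.92 and 4.21. Targets of the antioxidant factor NRF2 had a median of -0.20, near that of all genes (-0.19), and none of 19 was called, with 3 lower against 24 days.

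Genes tied to the treatments were also compared. Beside the counts of these lists, 0.865% of all genes were called higher and 1.63% lower. Of 11 measured genes on a vitamin D receptor list only Camp was called, higher on the BALB/c arrays. Whether vitamin D acts on Camp in these glands was not tested. Camp was high on both BALB/c arrays, with and without vitamin D5, and it was the only one of 18695 probes good on all 7 arrays that stood over 1 log2 unit above the other 5 arrays on both. S100g, a calcium-binding protein, stood at 4.87 and 4.73 against 6.01 and 4.65. Of 12 genes of the aryl hydrocarbon receptor, the sensor of DMBA, none was called. Against 24 days 294 of all 9944 genes were called higher and 587 lower. Among them Aldh3a1, Cyp1a1 and Cyp1b1, enzymes that this receptor induces, were higher, at 1.52, 1.29 and 1.39, and Ugt1a7c was lower, at -1.37. Against 10 days these 4 differed by -0.11, -0.77, -0.45 and -0.39. Cyp1b1, which activates DMBA, stood at 6.76 and 7.29 against 7.47 and 5.64, and at 5.06 on the C57 array with DMBA. Of 18 hormone receptor and target genes, Fkbp5, induced by glucocorticoids and progesterone, was called lower, at -0.27 and 0.18 against 0.33 and 2.54. Against 24 days Fkbp5, Scnn1a, Sgk1 and Tsc22d3, which corticosteroids induce, were called lower, as were 587 of all 9944 genes. Their differences were -2.59, -1.57, -1.95 and -1.57, and against 10 days -0.37, -0.42, -0.38 and 0.02. Per1, Scnn1b and Scnn1g of the same list were not called against 24 days, at -0.17, 0.08 and 0.13. Of 21 glutathione S-transferases, which conjugate toxins, Gstz1 and Mgst1 were called lower, with differences of -1.08 and -1.04, against 1.63% of all genes. Gstz1 stood at 2.68 and 3.11 against 3.2 and 4.75, and its difference was -0.3 against 10 days. Mgst1 stood at 4.95 and, with vitamin D5, at 6.67, against 6.78 and 6.91, and its difference was -0.18 without the other BALB/c array. None of 20 interferon-stimulated genes was called.

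**Figure D5:**
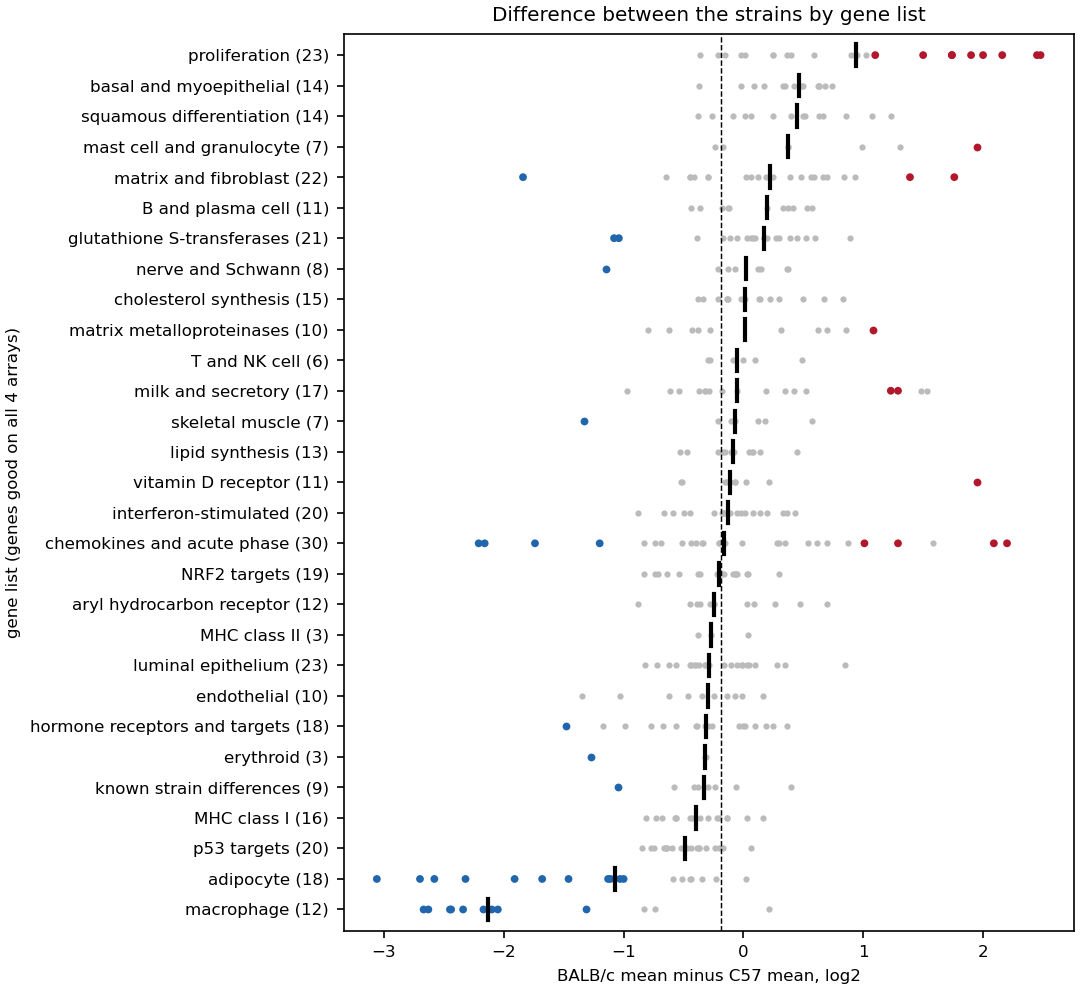
Difference between the BALB/c mean and the C57 mean (horizontal axis, log2) of each measured gene in 29 gene lists (vertical axis, with the number of genes), red and blue where called higher or lower and grey otherwise. Black bars are list medians and the dashed line is the median of all genes, -0.19: the macrophage (-2.13) and adipocyte (-1.07) lists lie lowest and the proliferation list (0.94) highest.

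Probes good on both arrays of one strain and near background on both of the other have only a bound, the mean of the bright arrays over the detection limit or the probe's own value on the dim arrays. There were 560 such probes on the BALB/c side, 114 of them at least 2-fold, and 322 on the C57 side, 65 of them at least 2-fold. The C57 side held larger bounds. Car3, a carbonic anhydrase of fat and muscle, was at least 28.7-fold higher on the C57 arrays, at 0.27 after 10 days and 5.74 after 24 days. Lep was at least 12.4-fold and Slc1a5, a glutamine transporter, at least 4.11-fold higher. Lep stood at -0.16 after 10 days and at 4.17 after 24 days, and Slc1a5 at 0.37 and 1.74. The bounds of Car3, Lep and Slc1a5 thus rest more on the 24-day array. Tlr7, a receptor for viral RNA, was at least 3.67-fold higher, at -0.31 and 0.55. A further probe of Plin4 and that of Sod3, an extracellular superoxide dismutase, had bounds of 3.36-fold and 3.15-fold, with Sod3 at -1.0 after 10 days and 0.63 after 24 days. On the BALB/c side the largest bounds were 3.65-fold for Speer3, 3.42-fold for Sh2d1a and 3.37-fold for P2ry10, followed by Ryr1, Zbtb33, Olfr1223, Rdh16f2 and Otof. Sh2d1a and Olfr1223 were bright only with vitamin D5, at 1.27 and 1.10 against -1.08 for each on the other BALB/c array, so their rank rests on 1 array. The rank of Zbtb33 rests on the other BALB/c array, at 0.91 there and -0.73 with vitamin D5.

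The 3 arrays outside the comparison were set against the midpoint between the strain means. On the C57 array with DMBA, 173 of the 204 good probes called lower (84.8%) lay on the C57 side of the midpoint, against 46.6% of all probes with a difference below 0. For probes called higher the count was 106 of 140 (75.7%), against 68.2% of all probes above 0. On the βERKO array the shares were 93.6% and 80.7%, against 66.9% and 67.2% of all probes. On the αERKO array they were 66.1% and 70.6%, against 38.2% and 58.6%. The 35 probes that stood over 1 log2 unit below all 5 other arrays on both BALB/c arrays included Lyz1, Lyz2, Tyrobp, Fcer1g, Ctss, C1qa, Alox5ap, Cd53, Cd36, Vim and Sncg. Tyrobp stood at 5.87 with DMBA, at 4.03 on the αERKO array and at 4.90 on the βERKO array, and the macrophage list's summed level on these arrays was 1060, 266 and 385. Cd14, which is part of these sums, stood at 5.98, 4.5 and 6.39, so the sums do not compare macrophage genes alone. Cdk1 stood at 3.16, 3.12 and 3.09 there, between the BALB/c values and the C57 24-day value.

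Of 502 genes with several good probes, 82.7% had the same sign at every probe. The SD of the strain difference per probe within a gene, estimated from pairs of probes, was 0.209. This is smaller than the SD of the difference between the probes of a pair. All 9 such genes with a called probe had the same sign at every probe.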

How the data were processed

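RNA of cultured glands was hybridized by the authors to 1-colour CodeLink arrays, 1 array per condition. The deposited intensity is the spot mean less the local background median, with a quality call by the scanner software. Intensities of gene probes were divided by the array's median over gene probes, after which values not above 0 were set to the smallest positive value of that array and logged to base 2. The deposited normalized intensity, the same values over 1 constant per array, was an alternative. Probes were named through RefSeq accessions (14760 of 15553 matched; assembly GRCm38.p6). The deposited files state no genome build, so no gene coordinates are given beside promoters. Strains were compared with limma 3.58.1 in R 4.3.3, which was tested on simulated data. With 1 array per condition, p-values measure only the spread between these arrays.

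Named genes are the 15 each way with the widest gap past 2-fold, 8 each way by bound, up to 4 per list by size of difference, all measured MHC and strain-difference genes, and 6 defining markers. Other genes, which are called members of a list or show its range, were chosen after their values were seen. Some genes that the rule names are not reported here. The members, the 29 lists and the rules were chosen with earlier results of these data known. No paired analysis was possible because each condition has 1 array.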

Additional observations from a re-analysis of the deposited data

How the results depend on the processing

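The counts of probes over 2-fold with groups apart (142 higher, 205 lower) moved with the settings. They were 220 and 130 when scaled to the 75th percentile, 69 and 77 after normexp background correction, and 1284 and 866 with every probe that any of the 4 arrays called good. With a threshold of 1.5-fold they were 516 and 1457, and with 3-fold 35 and 64. Adding the C57 array with DMBA to the C57 group gave 195 higher and 354 lower, and exchanging the 10-day array for it gave 585 and 837. Leaving out each array in turn gave 42 to 614 higher and 133 to 831 lower. The highest counts came without the C57 10-day array and the lowest without the C57 24-day array. Without the BALB/c array there were 337 higher and 224 lower, and without the array with vitamin D5 there were 173 higher and 414 lower. The share of called probes that were higher was 60.1% and 29.5% in these settings. The limma counts were 0 in every setting except 403 higher and 560 lower without the C57 10-day array and 1 lower without the C57 24-day array, so they ranged from 0 to 403 higher and from 0 to 560 lower. The causes were not tested, beyond the number of probes or arrays that a setting itself alters. Of 73 called genes named by rule or held by a list, 71 kept their direction in every setting in which they had a value. A called gene has its groups apart, so leaving out any of the 4 arrays could not turn it. Those settings therefore do not test its direction. Lum turned to -0.38 and Ccl8 to -0.11 when the 10-day array was exchanged for the array with DMBA. Over all called probes, 5 turned in that setting, and 2 when the array with DMBA was added. The median of the macrophage, adipocyte and proliferation lists kept its sign in every setting. No paired analysis was possible because each condition has 1 array. Dim probes lie close to a local background of 82 to 83, which limits the precision of levels below 0.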
